A study of Mus musculus with 12 samples.

Results

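The genes described here are the 3 T cell coreceptor genes Cd8a, Cd8b1 and Cd4 and 6 constant-region genes of the T cell receptor, Trac, Trbc1, Trbc2, Trdc, Tcrg-C1 and Tcrg-C2, together 9 of the 27457 gene symbols in the count table (26938 had a count). They were chosen by name, after a difference of Cd8a and Cd8b1 between host strains in T and NK cells of these tumors was known. The tumors were grown from 500000 cells of MC38, a mouse colon carcinoma line, under the skin of female mice aged 8 to 12 weeks, and the RNA of single cells was read from the 5′ end. Hosts were C57BL/6J (B6) mice or F1 animals of C57BL/6J and 1 of 7 Collaborative Cross strains (CC001, CC002, CC007, CC036, CC075, CC079 and CC080), inbred strains that mix the genomes of several founders. Each mouse received 200 µg of an antibody against PD-1 (aPD1, clone 29F.1A12) or of an isotype control (clone 2A3) once, at a tumor size of 75 to 110 mm3, and the tumor was taken 48 h later. Cells were sorted to 90% CD45+ and 10% CD45- cells, where CD45 marks blood-derived cells.

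The study classed CC001, CC002 and CC075 F1 mice as responders to aPD1 and CC036, CC079 and CC080 F1 mice as non-responders. Responder hosts gave 10 isotype and 10 aPD1 tumors, with 1913 and 3432 T and NK cells. Non-responder hosts gave 9 and 9 tumors, with 2599 and 1246 such cells. B6 and CC007 hosts, in neither class, gave 5 tumors of each treatment. Each strain is in 1 class, so class and strain cannot be told apart. The animals of a class differ in all the genes that differ between those strains. No hashtag antibody marked both isotype and aPD1 tumors, so hashtag and treatment cannot be told apart either. In all, 93126 cells of 48 tumors held a median of 3333.5 unique molecular identifiers (UMIs, each 1 captured transcript) per cell. They fell into 27 numbered clusters of the study, 9 of them with T and NK markers (clusters 1, 3, 7, 8, 10, 12, 13, 23 and 24; 12021 cells, 33601215 UMIs, called T/NK cells below). Per tumor, T/NK cells numbered 8 to 810, and in 4990 cases the same cell barcode occurred in 2 or more libraries (10176 cells).

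A T cell recognises antigen with a receptor of 2 chains, alpha with beta or gamma with delta, each made of a variable part that differs between clones and a constant part encoded by the genes described here. The alpha locus, to which Trac belongs, encloses the delta locus in the genome, and a cell that rearranges alpha deletes delta on that allele. Cd8a and Cd8b1 encode the chains of the coreceptor of cytotoxic T cells, which binds MHC class I as an alpha-beta or alpha-alpha dimer, and Cd4 encodes the coreceptor of helper and regulatory T cells, which binds MHC class II. In mice, dendritic cells of some kinds also carry CD8 alpha or CD4 without being T cells, and natural killer (NK) cells can transcribe constant genes that are not rearranged.

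In the GENCODE annotation of GRCm38, Cd8b1 (chr6:71322788-71337494, + strand) and Cd8a (chr6:71373427-71379173, + strand) are neighbours on chromosome 6, which also holds Trbc1 (chr6:41538218-41539881, +), Trbc2 (chr6:41546730-41548352, +) and Cd4 (chr6:124864692-124888221, -). Trdc (chr14:54142851-54148868, +) stands before Trac (chr14:54220521-54224206, +), and Tcrg-C1 (chr13:19214103-19217024, +) and Tcrg-C2 (chr13:19304649-19307551, -) lie on opposite strands of chromosome 13. The paired constant genes are near copies, which bears on every value given for them. The first constant exons of Trbc1 and Trbc2 were identical at 374 of 375 bases (99.7%). The stretch with the only mismatch is bases 241 to 300 of that exon, chr6:41538458-41538517 and chr6:41546970-41547029, both coding and on the + strand, with the mismatched base in capitals:
Trbc1 exon 1: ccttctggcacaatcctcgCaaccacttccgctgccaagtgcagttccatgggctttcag
Trbc2 exon 1: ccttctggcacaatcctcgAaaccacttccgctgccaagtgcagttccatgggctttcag

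The third exons differed more, at 15 of 107 bases (86.0% identical). They are shown whole (chr6:41539229-41539335 and chr6:41547772-41547878, + strand) because reads that reach them separate the genes, again with mismatches in capitals:
Trbc1 exon 3: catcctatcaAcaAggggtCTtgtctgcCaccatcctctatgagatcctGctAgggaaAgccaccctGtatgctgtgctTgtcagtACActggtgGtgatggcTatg
Trbc2 exon 3: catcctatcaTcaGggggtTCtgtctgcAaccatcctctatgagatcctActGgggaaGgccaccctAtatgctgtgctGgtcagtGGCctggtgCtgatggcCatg

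Of the 648 stretches of 90 bases, the length of a cDNA read, in the Trbc1 transcript, 203 (31.3%) also occurred in Trbc2, and 203 of 603 (33.7%) the other way. A read from such a stretch cannot be placed, so every Trbc1 and Trbc2 level and difference given here is uncertain. The gamma genes shared fewer such stretches, 15 of 835 for Tcrg-C1 (1.80%), although their first exons were identical at 321 of 330 bases (97.3%). Bases 1 to 240 of those exons, nearest the variable part and so to the 5′ end that was read, hold 7 of the 9 mismatches (chr13:19214103-19214342, +; chr13:19307312-19307551, -; capitals):
Tcrg-C1 exon 1: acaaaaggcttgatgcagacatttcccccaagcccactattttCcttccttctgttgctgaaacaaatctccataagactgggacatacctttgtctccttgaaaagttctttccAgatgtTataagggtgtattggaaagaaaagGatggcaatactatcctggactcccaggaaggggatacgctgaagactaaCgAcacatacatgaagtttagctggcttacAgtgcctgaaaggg
Tcrg-C2 exon 1: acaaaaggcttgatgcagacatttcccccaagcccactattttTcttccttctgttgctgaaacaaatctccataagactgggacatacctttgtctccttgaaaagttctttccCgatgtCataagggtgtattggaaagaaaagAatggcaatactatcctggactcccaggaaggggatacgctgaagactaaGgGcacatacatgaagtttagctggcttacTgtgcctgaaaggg

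Cd8a and Cd8b1, in contrast, shared 0 of 3039 stretches of 90 bases.

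Levels are given as CPM, the UMIs of a gene per 1000000 UMIs of the same cells, and are compared between cells and tumors, not between genes. Over all 93126 cells, 84.3% of the Cd4 UMIs and between 94.4% (Tcrg-C1) and 98.2% (Tcrg-C2) of those of the other 8 genes were in T/NK cells. Trbc2 had 16929 UMIs, Trac 13141, Cd8a 12056, Cd8b1 11360, Trbc1 7960, Cd4 2713, Tcrg-C2 1023, Trdc 563 and Tcrg-C1 232. In macrophages each gene stood between 0.0155 CPM (Tcrg-C1) and 0.885 CPM (Trbc2), the level against which the other clusters are read. The map of levels by cluster shows where each gene was found. Clusters were made by the study from expression in the same cells, and whether these genes were among the variable features used is not given in the sources used here, so differences between clusters are a description with no test.

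**Figure D1:**
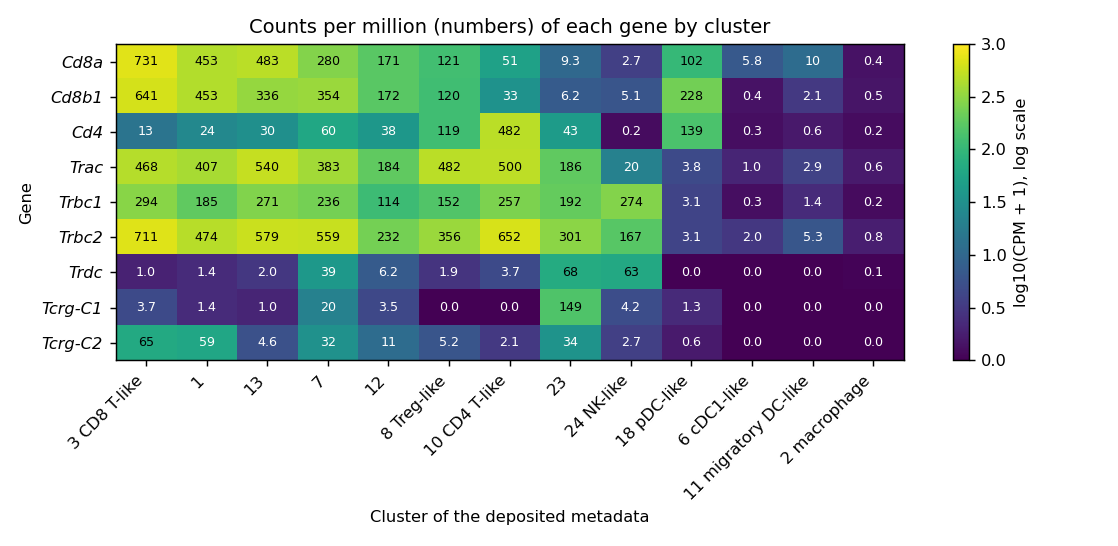
CPM of each of the 9 genes (rows) in the 9 T/NK clusters, 3 dendritic cell clusters and macrophage cluster 2 (columns). Numbers are CPM of the summed counts and colors are log10(CPM + 1). Cd8a and Cd8b1 peak in cluster 3, Cd4 in cluster 10, and Tcrg-C1 in cluster 23, while cluster 24 has Trbc1, Trbc2 and Trdc with little Trac.

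The clusters are named where markers allowed. Cluster 3 (2809 cells, led by Gm156, Cd8a, Cd8b1, Pdcd1 and Lag3) was CD8 T-like, cluster 8 (2206 cells, Foxp3) Treg-like, that is regulatory T cell-like, cluster 10 (Il13, Cd4 and Il4) CD4 T-like, and cluster 24 (1614 cells, Ncr1, Gzma and Klrb1c) NK-like. Clusters 1, 7, 12, 13 and 23 are called by number: cluster 7 was led by Lef1 and Tcf7, cluster 13 by Il2, Ifng and Xcl1, cluster 23 by Il23r, Il17a, Tcrg-C1 and Il1rl1, and cluster 12 by hemoglobin and granzyme genes. Cluster 12 (535 cells) also held 6 of 7 macrophage markers at 100 CPM or more, beside 8 of 8 T/NK markers. The summed macrophage markers had a median of 595 CPM in non-responder T/NK cells. Without cluster 12, an alternative added after seeing the data, it was 138 CPM, against 133 CPM in responder T/NK cells. Doublets were not called.

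Of the coreceptors, Cd8a stood at 731 CPM in cluster 3, with tumors from 402 to 1208 CPM among those with at least 10 cells in the cluster. Cluster 13 followed at 483 CPM, cluster 1 at 453, cluster 7 at 280, cluster 12 at 171 and cluster 8 at 121, and each cluster overlapped the next in its tumor range. Cd8b1 stood at 641 CPM in cluster 3, 453 in cluster 1, 354 in cluster 7 and 336 in cluster 13. Cluster 13 thus stood above clusters 1 and 7 for Cd8a and below both for Cd8b1. A Cd8a or Cd8b1 UMI was found in 88.2% of cluster 3 cells (median 2823 UMIs per cell), 67.3% of cluster 1, 63.9% of cluster 13 and 34.7% of cluster 7 (median 1347 UMIs), against 0.348% of macrophage cluster 2 (median 3881 UMIs). Both were found in 64.3% of cluster 3 cells. With every cell of at least 1000 UMIs thinned to that number (7883 cells left out), a Cd8a or Cd8b1 UMI remained in 70.5% of cluster 3, 48.2% of clusters 1 and 13, and 33.8% of cluster 7. For 7 of the 9 genes the cluster with the highest share of cells stayed the same after thinning; it moved for Trac from cluster 13 to 8 and for Tcrg-C2 from cluster 1 to 3.

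Cd4 reached 482 CPM in the CD4 T-like cluster 10. The lowest of its tumors (365 CPM) stood above the highest tumor of the next cluster, the pDC-like cluster 18 (339 CPM), and this was the only pair of neighbouring ranks, over the 9 genes, whose tumor ranges did not overlap. The Treg-like cluster 8 had 119 CPM and cluster 7 had 59.9 CPM. A Cd4 UMI was found in 65.1% of cluster 10 cells and 23.9% of cluster 8 cells, but in 2.31% of cluster 3 cells. Cells with both a Cd4 and a CD8 UMI were few in these T/NK clusters, 21 in cluster 3, 14 in cluster 8 and 9 in cluster 10.

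Outside the T/NK clusters, coreceptor transcripts stood out in dendritic cells. In the pDC-like cluster 18 (plasmacytoid dendritic cells, 458 cells, led by Siglech and Klk1) Cd4 was at 139 CPM, Cd8b1 at 228 CPM and Cd8a at 102 CPM, while Trac was at 3.8 CPM. There 26.9% of cells had a Cd4 UMI, 40.6% a CD8 UMI, and 69 cells (15.1%) had both. In the cDC1-like cluster 6, the conventional dendritic cells that carry CD8 alpha in mouse lymphoid organs, 57 Cd8a UMIs stood against 4 Cd8b1 UMIs. These tumor cDC1-like cells had 5.8 CPM of Cd8a, from 0 to 16.6 CPM by tumor. Cd8a was higher, at 10.4 CPM, in the migratory DC-like cluster 11.

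The share of Cd8b1 in the UMIs of Cd8a and Cd8b1 together puts these cells in order without any scaling. It was 6.56% in cDC1-like cells (95% Wilson interval 2.58 to 15.7; intervals cover counting error only), 41.1% in cluster 13 (38.7 to 43.5), 46.8% in cluster 3 (45.9 to 47.6), 55.8% in cluster 7 (54.1 to 57.5) and 69.1% in pDC-like cells (65.0 to 72.9). Other dendritic cells also had low shares, 16.9% (10.3 to 26.3) in the migratory DC-like cluster 11 and 26.8% (17.9 to 38.1) in cluster 14. Tumors spread widely around the values of the T cell clusters: the SD over tumors with at least 20 UMIs was 6.58 points in cluster 3 (44 tumors) and 9.83 points in cluster 7 (42 tumors).

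Of the alpha and beta chains, Trac was at 540 CPM in cluster 13, 500 in cluster 10, 482 in cluster 8, 468 in cluster 3, 407 in cluster 1, 383 in cluster 7, 186 in cluster 23 and 184 in cluster 12, with overlapping tumor ranges at every step. It was lowest of the T/NK clusters in cluster 24, with 19.8 CPM. Over the 27 clusters, the genes whose log2(CPM + 1) ran closest to Trac among 7375 genes were Cd3e (Pearson r = 0.99), Themis (0.98) and Cd3g (0.98), parts or partners of the receptor complex. For Cd8a they were Gm44174 (0.93), Lag3 (0.92) and Themis (0.91), for Cd8b1 Gm44174 (0.94), Lag3 (0.93) and Trbv16 (0.91), a variable gene of the beta chain, for Cd4 Fam169b (0.87), Trbv20 (0.86) and Cd40lg (0.85), and for Trdc Tcrg-C4 (0.90), Klrb1a (0.87) and Apol7e (0.85). Cd8a and Cd8b1 had r = 0.97 with each other. The clusters share tumors, libraries and depth, so these values describe likeness only.

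NK-like cells carried beta chain transcripts in another ratio than the other T/NK clusters. Cluster 24 had 274 CPM of Trbc1 and 167 CPM of Trbc2, whereas cluster 3 had 294 and 711 CPM. Trbc1 made up 62.1% of the beta constant UMIs of cluster 24 (59.8 to 64.3), against 28.0% to 33.0% in clusters 1, 3, 7, 8, 10, 12 and 13 and 39.0% in cluster 23. In 30 of 30 tumors with at least 20 such UMIs on both sides, the share was higher in cluster 24 than in the other 8 T/NK clusters of the same tumor, by 31.4 ± 11.6 percentage points (SD, n = 30), from 5.34 to 55.0 points. The plot of paired shares shows that the lines of all tumors run the same way. Reads that cannot be placed can occur on both sides, and their fraction on each side was not measured. What part they have in either share was not tested.

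**Figure D2:**
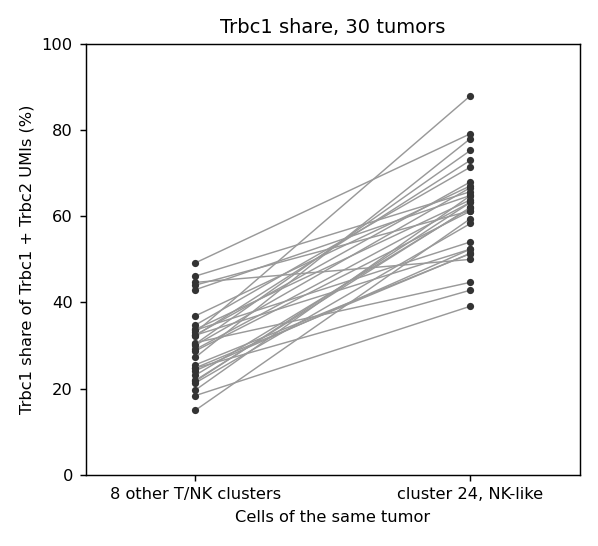
Trbc1 share of the Trbc1 plus Trbc2 UMIs (y axis, percent) in the 8 other T/NK clusters and in the NK-like cluster 24 of the same tumor. Each line is 1 of 30 tumors with at least 20 UMIs on both sides; the share was higher in cluster 24 in all 30.

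Of the gamma and delta chains, Trdc was at 68.2 CPM in cluster 23, 63.2 in the NK-like cluster 24 and 38.5 in cluster 7, and at 6.2 CPM or below in every other T/NK cluster. The level of cluster 23 rests on 22 UMIs, and its highest tumor with at least 10 cells there stood at 59.1 CPM. A Trdc UMI was found in 196 cells of cluster 24 (12.1%). Of these, 9 had a Trac UMI, which was found in 3.53% of all cluster 24 cells. In cluster 7, 112 cells had a Trdc UMI and 15 of them a Trac UMI, although a Trac UMI was found in 41.7% of all cluster 7 cells. Trdc made up 76.1% of the Trdc and Trac UMIs of cluster 24 (71.3 to 80.3), 26.8% in cluster 23 and 9.14% in cluster 7. Tcrg-C1 was at 149 CPM in cluster 23 and 19.8 CPM in cluster 7. Of a list of gamma delta and innate-like lymphocyte genes, 9 were in the count table, and 8 of them had their highest level in cluster 23, with Il23r at 285 CPM, 5830411N06Rik at 177, Zbtb16 at 168, Il17a at 149 and Tcrg-C4 at 93.1. None of the 9 passed the filter on low counts in the tests below. Cluster 23 held 2 of 7 gamma delta T cell markers at 100 CPM or more. It also held 5 of 6 markers of type 2 innate lymphoid cells and 4 of 5 CD4 T cell markers, and it is left without a name.

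Tcrg-C2 did not follow Tcrg-C1. It was at 65.4 CPM in the CD8 T-like cluster 3 and 59.3 CPM in cluster 1, above cluster 23 (34.1) and cluster 7 (31.9), and cluster 13 had 4.6 CPM. The value of cluster 23 rests on 11 UMIs, and every tumor with at least 10 cells there stood at 0. Of the 1023 Tcrg-C2 UMIs, 59.8% were in cluster 3. It made up 94.6% of the UMIs of the 2 gamma genes in cluster 3 (92.6 to 96.1), 61.7% in cluster 7 and 18.6% in cluster 23. The cells with Tcrg-C2 in clusters 3 and 1 were CD8 cells in most cases: 95.2% and 94.0% of them had a Cd8a or Cd8b1 UMI, where 88.2% and 67.3% of all cells of these clusters had one. With cells thinned to 1000 UMIs these shares were 79.0% and 64.3%, against 70.5% and 48.2% of all cells. Cluster 7 went the other way, with 25% of its Tcrg-C2 cells against 34.7% of all its cells. Trdc, the partner of a gamma chain in a gamma delta receptor, was found in 7 of the 2809 cells of cluster 3.

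Between host classes, the summed T/NK cells show the difference that was known when the genes were chosen, given here without a test. Cd8a ran from 117 to 607 CPM in the 10 responder isotype tumors (median 507) and from 251 to 581 CPM in the 10 responder aPD1 tumors (400). In the 9 non-responder isotype tumors it ran from 43.7 to 471 CPM (199) and in the 9 non-responder aPD1 tumors from 65.9 to 283 CPM (145), so the ranges of the classes overlapped. On the log2 scale of the edgeR fit, averaged over treatments, the difference between responder and non-responder tumors was 1.32 ± 0.20 (SE) for Cd8a, 1.16 ± 0.18 for Cd8b1, 0.38 ± 0.12 for Trbc2, 0.31 ± 0.10 for Trac, 0.24 ± 0.35 for Tcrg-C2, 0.04 ± 0.17 for Trbc1, -0.72 ± 0.20 for Cd4 and -1.47 ± 0.34 for Trdc. Tcrg-C1 did not pass the filter on low counts. In this fit 161 of 7219 genes were called at an adjusted p under 0.05 (2.23%).

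The makeup of the T/NK cells moved with class. Cluster 3 made up 33.4% of them in responder isotype, 29.6% in responder aPD1, 12.9% in non-responder isotype and 7.65% in non-responder aPD1 tumors (means over tumors). The Treg-like cluster 8 made up 15.9%, 16.8%, 23.2% and 35.7%, and the NK-like cluster 24, which holds much of the Trdc, 8.9%, 10.3%, 17.6% and 13.4%. In the sum, more cells of a type and more transcript per cell cannot be told apart, which is why the genes were then compared within single clusters, in the same tumors. Within a cluster both are still mixed, since a CD8 UMI was found in 34.7% of cluster 7 and 8.43% of cluster 8 cells. In cluster 3 it was found in 81.0% of cells of non-responder and 90.4% of those of responder tumors.

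Within clusters 3, 7, 8, 10 and 24, each with at least 5 tumors of each class holding 10 cells or more, 25 pairs of gene and cluster passed the filter on low counts. Of these, 1 was called at an adjusted p under 0.05 (edgeR's quasi-likelihood test, Benjamini-Hochberg over all genes of a fit), which was Cd4 in cluster 3, and 7 had an unadjusted p under 0.05. In cluster 3, 0.769% of all genes tested were called, in cluster 7 0.281%, in cluster 8 0.166%, in cluster 10 0.311% and in cluster 24 0.132%. The panels of single clusters show Cd8a and Cd8b1 per tumor.

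**Figure D3:**
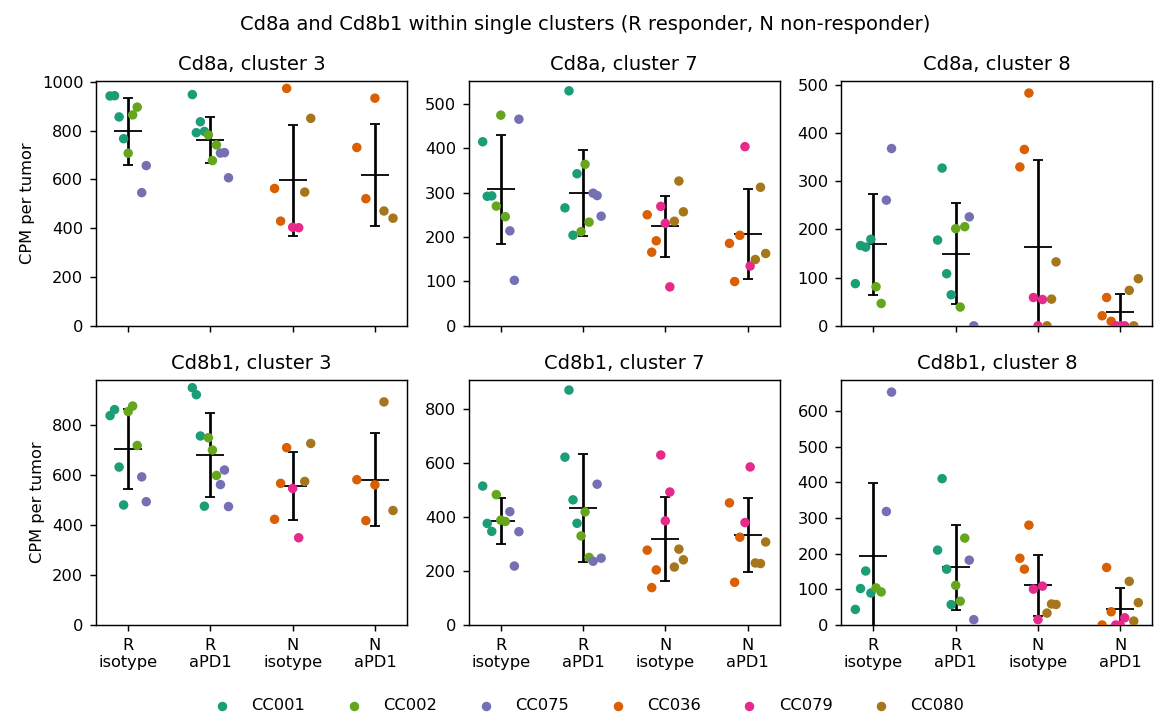
CPM of Cd8a (top) and Cd8b1 (bottom) per tumor within clusters 3, 7 and 8, for tumors with at least 10 cells in the cluster, by class (R responder, N non-responder) and treatment. Points are tumors colored by host strain, bars are mean and SD; in cluster 3 the Cd8a of responder tumors lay between 546 and 947 CPM and that of non-responder tumors between 402 and 973 CPM, so the classes overlap.

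In cluster 3, Cd8a ran from 546 to 947 CPM in 19 responder tumors (median 782) and from 402 to 973 CPM in 12 non-responder tumors (median 534). Its log2 difference was 0.42 ± 0.14 (SE, adjusted p = 0.197). Cd8b1 ran from 473 to 947 CPM (median 699) against 348 to 891 CPM (median 563), with a difference of 0.33 ± 0.15 (adjusted p = 0.446). It was above 0 in all 27 fits run and past the threshold in 2, both with no filter on low counts, at 0.58 ± 0.15 without CC075 (adjusted p = 0.0184, 1.31% of genes called) and 0.76 ± 0.17 without CC080 (adjusted p = 0.00177, 2.23% called). The high non-responder values were those of CC036 and CC080 tumors, up to 973 and 850 CPM of Cd8a, and both CC079 tumors with 10 cells or more stood at 402 and 404 CPM. Cd8a was higher in responder tumors in all 27 fits run for cluster 3, from 0.14 to 0.78, and passed the threshold in 6 of them. Those 6 were the fits with no filter on low counts (0.649% of genes called), the same without CC075 (1.31%), CC036 (0.707%) or CC080 (2.23%) or in pools 1 to 5 (0.859%), and pools 1 to 5 with the filter (0.832%). In pools 1 to 5, which hold no CC036 or CC075 tumor, it was 0.69 ± 0.16 (adjusted p = 0.0346), and in pools 8 to 12, where all non-responder tumors with at least 10 cluster 3 cells were of CC036 (the CC080 tumors of pool 11 had 7 and 8), 0.14 ± 0.19 (adjusted p = 0.808).

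Cluster 7 gave a similar size. Cd8a ran from 103 to 530 CPM in 19 responder tumors (median 292) and from 87.8 to 404 CPM in 17 non-responder tumors (median 204), a log2 difference of 0.49 ± 0.19 (adjusted p = 0.492). For Cd8b1 the medians were 383 and 280 CPM and the difference 0.36 ± 0.19 (adjusted p = 0.697). Trbc1 in cluster 7 went the other way, with medians of 158 and 236 CPM and a difference of -0.59 ± 0.20 (adjusted p = 0.401). Without CC002 it was -0.94 ± 0.21 (adjusted p = 0.0253, 0.332% of genes called), its one fit of 19 past the threshold.

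In the Treg-like cluster 8, 8.43% of cells had a CD8 UMI and 4.67% had both a Cd8a and a Cd8b1 UMI, so few cells carry the values that follow. There Cd8a ran from 0 to 368 CPM in 17 responder tumors (median 166, 1 tumor at 0) and from 0 to 483 CPM in 18 non-responder tumors (median 55.0, 6 tumors at 0), a log2 difference of 1.23 ± 0.48 (adjusted p = 0.365). Cd8b1 reached 654 CPM (median 111) in responder tumors, none of them at 0, and 280 CPM (median 58.4) in non-responder tumors, 3 of them at 0, a difference of 1.33 ± 0.39 (adjusted p = 0.207). Over 18 fits each, the differences ran from 0.62 to 2.31 for Cd8a and from 0.92 to 1.75 for Cd8b1. With no filter on low counts both passed the threshold (adjusted p = 3.26e-07 and 4.01e-09, where 0.641% of genes were called), and Cd8a also did in pools 1 to 5 (adjusted p = 0.0217, 0.546% called). Whether these UMIs come from the Treg-like cells themselves or from stray transcripts and doublets, in tumors where CD8 cells make up more of the T/NK cells, was not tested.

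In clusters 1 and 13, which also hold CD8 transcripts, too few non-responder tumors had 10 cells. With tumors of 5 cells or more, a choice made after seeing the data, the Cd8a difference was 0.33 in cluster 1 (adjusted p = 0.831) and 0.54 in cluster 13 (adjusted p = 0.601), and that of Cd8b1 was 0.20 and 0.35. In all 5 clusters (1, 3, 7, 8 and 13) the Cd8a and Cd8b1 differences were above 0, and none passed the threshold with the filter on low counts and all pools. The same tumors give these values, and the known difference in the sum includes the same cells, so the shared sign is not independent support.

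The 1 call within a cluster was of few molecules. Cd4 in cluster 3 ran from 0 to 30.3 CPM in the 19 responder tumors (median 2.26, 9 tumors at 0, 34 UMIs in all) and from 0 to 182 CPM in the 12 non-responder tumors (median 34.8, 3 tumors at 0, 68 UMIs), a log2 difference of -3.21 ± 0.61 (adjusted p = 0.00517). Here 14 of 4031 genes (0.347%) were called lower in responder tumors. The 6 CC036 tumors stood at 21.5, 28.6, 61.8, 62.2, 78.0 and 182 CPM, all above 0, whereas the 4 CC080 tumors stood at 0, 0, 8.16 and 40.9 CPM and the 2 CC079 tumors at 0 and 161 CPM. Outside both classes, a CC007 aPD1 tumor with 15 cells in the cluster stood highest, at 251 CPM. Cd4 was so low that it did not pass the filter on low counts without CC002, CC075, CC036 or CC079, in pools 1 to 5 or with at least 20 cells per tumor. No responder tumor stood above 30.3 CPM, so the higher values that let Cd4 pass the filter were those of non-responder tumors. Passing the filter and the call thus rest on the same tumors, and the call is not independent support for a class difference. With no filter, the difference was -1.35 ± 1.13 without CC036 (adjusted p = 0.887), -1.37 ± 1.13 with at least 20 cells (adjusted p = 0.961), -1.53 ± 1.09 in pools 1 to 5 (adjusted p = 0.869), and from -3.63 to -2.74 without any other 1 strain, past the threshold each time. With counts summed per strain it was -2.85 ± 0.56 (adjusted p = 0.217).

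By cells, 22 of 170 cluster 3 cells of CC036 tumors had a Cd4 UMI (12.9%, 8.70 to 18.8), 7 of 257 of CC080 (2.72%), 3 of 31 of CC079 (9.68%), 14 of 490 of CC075 (2.86%), 5 of 495 of CC001 and 5 of 789 of CC002. Of the 32 such cells in non-responder tumors 24 had no CD8 UMI, and of the 24 in responder tumors 14 had none. A CD8 UMI was found in 81.0% of cluster 3 cells of non-responder tumors and in 90.4% of those of responder tumors, at median depths of 3083 and 2747 UMIs. Macrophage markers in cluster 3 summed to similar levels in both classes, 33.9 to 238 CPM (median 112) in responder and 45.7 to 323 CPM (median 91.7) in non-responder tumors.

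The other receptor genes showed smaller class differences in cluster 3: 0.22 ± 0.14 for Trac, 0.12 ± 0.24 for Trbc1 and 0.02 ± 0.15 for Trbc2 (adjusted p = 0.596, 0.942 and 1.00, in this order). Tcrg-C2 had -0.85 ± 0.43 (adjusted p = 0.493), and its tumors scattered widely. In the 5 non-responder aPD1 tumors it stood at 310 and 98.0 CPM in CC080 and at 279, 234 and 20.7 CPM in CC036, and in the 7 non-responder isotype tumors at 304 and 16.9 CPM in CC080, 30.9, 42.9 and 58.5 CPM in CC036 and 0 in both CC079 tumors. Responder tumors ran from 0 to 195 CPM (median 49.6). High tumors were thus found in 2 strains and both treatments. Of the non-responder isotype tumors, only the CC080 tumor of pool 3 was high, at 304 CPM. Its animal identifier also stands on another CC080 tumor. For Tcrg-C2, aPD1 minus isotype in non-responders was 1.25 ± 0.70 (edgeR's quasi-likelihood test, adjusted p = 0.940). In the CD4 T-like cluster 10 Cd4 ran from 369 to 852 CPM in 9 responder tumors (median 489) and from 365 to 586 CPM in 7 non-responder tumors (median 410), a difference of 0.12 ± 0.22 (adjusted p = 0.893). In the NK-like cluster 24 Trbc1 differed by 0.08 ± 0.19 (adjusted p = 0.928), with 16 and 14 tumors.

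The CD3 genes Cd3d, Cd3e and Cd3g, the kinase gene Zap70 and the adaptor gene Sh2d2a were called higher in responder T/NK cells, and the other 15 receptor complex genes were not called. This contrast was known when the lists were made, so it is given as a description. Of 20 genes for the complex and its first signalling steps, all tested in the summed T/NK cells, 5 were called higher in responder tumors and 0 lower (14 with a difference above 0), with a median log2 difference of 0.14 against -0.01 over all genes tested and 0.928% of genes called higher. Sh2d2a, an adaptor of activated T cells, was at 0.64 ± 0.13, the CD3 epsilon gene Cd3e at 0.50 ± 0.12, the kinase gene Zap70 at 0.32 ± 0.09 and the CD3 delta gene Cd3d at 0.43 ± 0.12. Of 10 lineage regulators, among them Runx3 and Zbtb7b, which set CD8 and CD4 fate, 0 were called, with 2 differences above 0 and a median of -0.32. Within cluster 3 none of the 19 complex genes tested was called (median 0.16, over all genes 0.01), Sh2d2a being closest with 0.46 ± 0.13 (adjusted p = 0.0754). Within the other 4 clusters 0 genes of either list were called.

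The antibody was the second comparison: aPD1 against isotype after 48 h, within each class, and the difference between classes. Over the T/NK sum and the 5 clusters, 99 pairs of gene and contrast were tested and 0 were called (edgeR's quasi-likelihood test, smallest adjusted p = 0.910), with 4 at an unadjusted p under 0.05. DESeq2 also called 0. Of all genes, 0.0139% were called in non-responder T/NK cells, 0.0248% in non-responder cluster 3 and 0.0496% for the difference between classes in cluster 3, and 0 in every other contrast. In responder T/NK cells aPD1 minus isotype was -0.18 ± 0.26 for Cd8a, -0.05 ± 0.23 for Cd8b1, 0.41 ± 0.28 for Cd4, -0.07 ± 0.14 for Trac and 0.54 ± 0.53 for Trdc. In non-responder T/NK cells it was -0.54 ± 0.29 for Cd8a, -0.40 ± 0.26 for Cd8b1, 0.15 ± 0.28 for Cd4 and 0.10 ± 0.15 for Trac. The difference between classes was 0.36 ± 0.39 for Cd8a. Macrophage markers in T/NK cells summed to 158 to 1685 CPM (median 479) in non-responder isotype and to 263 to 3751 CPM (median 1119) in non-responder aPD1 tumors. Without cluster 12 these medians were 138 and 142 CPM, and 0 of the genes were called in T/NK cells.

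The widest antibody value was in the Treg-like cluster 8 of non-responders. Cd8a there ran from 0 to 483 CPM in 9 isotype tumors (median 58.7, 2 at 0) and from 0 to 97.8 CPM in 9 aPD1 tumors (median 9.30, 4 at 0), a difference of -2.0 ± 0.75 (adjusted p = 1.00). With no filter on low counts it passed the threshold (adjusted p = 5.44e-07, where 0.0839% of genes were called), as did the difference between classes in it (2.13 ± 0.40, adjusted p = 0.00028, 0.12% called), whereas without CC036 it was -0.46 ± 0.87. With and without the filter the tumors and their Cd8a counts were the same, so these calls depend on that setting. The SE of 0.40 with no filter was smaller than the 0.75 above, and the reason was not tested. The 3 highest isotype tumors, at 330, 366 and 483 CPM, were those of CC036. Within cluster 3 of non-responders the Cd8a difference was -0.07 ± 0.22, and of responders -0.08 ± 0.16.

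Ratios of 2 genes in the same cells need no scaling and were compared per tumor. They were taken over all T/NK cells, so the makeup by cluster also enters them. The Cd8b1 share of CD8 UMIs was 41.1% in cluster 13, 46.8% in cluster 3 and 55.8% in cluster 7. What part makeup has in the ratios was not tested. The log2 ratio of Cd8a to Cd8b1 in T/NK cells was 0.10 ± 0.33 (SD, n = 10) in responder isotype, 0.06 ± 0.26 (n = 10) in responder aPD1, -0.14 ± 0.52 (n = 9) in non-responder isotype and -0.15 ± 0.27 (n = 8) in non-responder aPD1 tumors. The class difference was 0.24 in isotype (exact permutation test, two-sided, p = 0.242, adjusted p = 0.658 over the 19 ratio tests of this kind) and 0.21 in aPD1 tumors (exact permutation p = 0.119, adjusted p = 0.438), within the spread of tumors. The ratio of both CD8 genes to Cd4 was 4.23 ± 1.01 in responder isotype, 3.62 ± 0.75 in responder aPD1, 2.13 ± 0.75 in non-responder isotype and 1.80 ± 0.93 in non-responder aPD1 tumors (log2, mean ± SD). Its change with aPD1 was -0.62 in responders (permutation p = 0.138, adjusted p = 0.438) and -0.33 in non-responders (exact permutation p = 0.427, adjusted p = 0.759). Over tumors matched by pool, the change was -0.62 ± 1.36 (SD, 10 pairs) in responders and -0.28 ± 1.33 (8 pairs) in non-responders, a difference of -0.34 that did not pass the threshold (exact permutation p = 0.60, adjusted p = 0.814).

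The Trdc share of Trdc and Trac UMIs ran from 0 to 16.9% in responder isotype tumors (median 0.830%) and from 1.43 to 15.5% in non-responder isotype tumors (median 5.05%). The mean difference was -5.30 percentage points (exact permutation p = 0.0365, adjusted p = 0.346). The classes overlapped. The CC075 isotype tumor of pool 10 held the 16.9%, and the 9 others of its group were at 2.17% or below, while the CC079 isotype tumor of pool 5 held the 1.43% and the 8 other non-responder tumors were at 4.59% or above. Leaving out 1 strain at a time, the difference ran from -6.99 points without CC075 (exact permutation p = 0.00149, adjusted p = 0.0267) to -4.28 without CC001 (exact permutation p = 0.169, adjusted p = 0.883), and only without CC075, the strain of the highest tumor, did it pass the threshold. In aPD1 tumors the shares were 2.43% ± 1.17 (SD, n = 10) and 5.79% ± 6.25 (n = 9), a difference of -3.36 points (exact permutation p = 0.0806, adjusted p = 0.438). The NK-like cluster 24 held 45.8% of all Trdc UMIs. Without it, which by itself removes much of the Trdc share, the isotype difference was -2.12 points (adjusted p = 0.614, exact permutation), and the part of cell makeup in the difference was not tested.

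The last comparison was of the 8 hosts, without use of class, in the 47 tumors with at least 10 T/NK cells. A host difference of Cd8a and Cd8b1 was known when the genes were chosen, so their levels are a description with no test. In an F test over hosts with treatment as a term, 5 of the other 7 genes were called, where 2138 of 8458 genes tested were (25.3%). The adjusted p was 0.000956 for Trbc2, 0.00217 for Trbc1, 0.00269 for Trdc, 0.00270 for Cd4 and 0.00896 for Tcrg-C2, while Trac (0.0925) and Tcrg-C1 (0.757) were not called. With the pool, that is the shared library of 4 tumors, as a block, 7.33% of genes were called and again 5 of these 7, with Trac called (0.00527) and Trdc not (0.0501). The differences between hosts contain those between classes, and the class contrast of these genes in the same T/NK sums was known when they were chosen. The host calls are thus not independent of that choice and are no separate support. Among the 6 classed strains, with class as a term (an alternative chosen after seeing the data), Trbc1, Trbc2 and Tcrg-C2 were called and Cd4, Trdc and Trac were not, where 30.7% of all genes were.

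**Figure D4:**
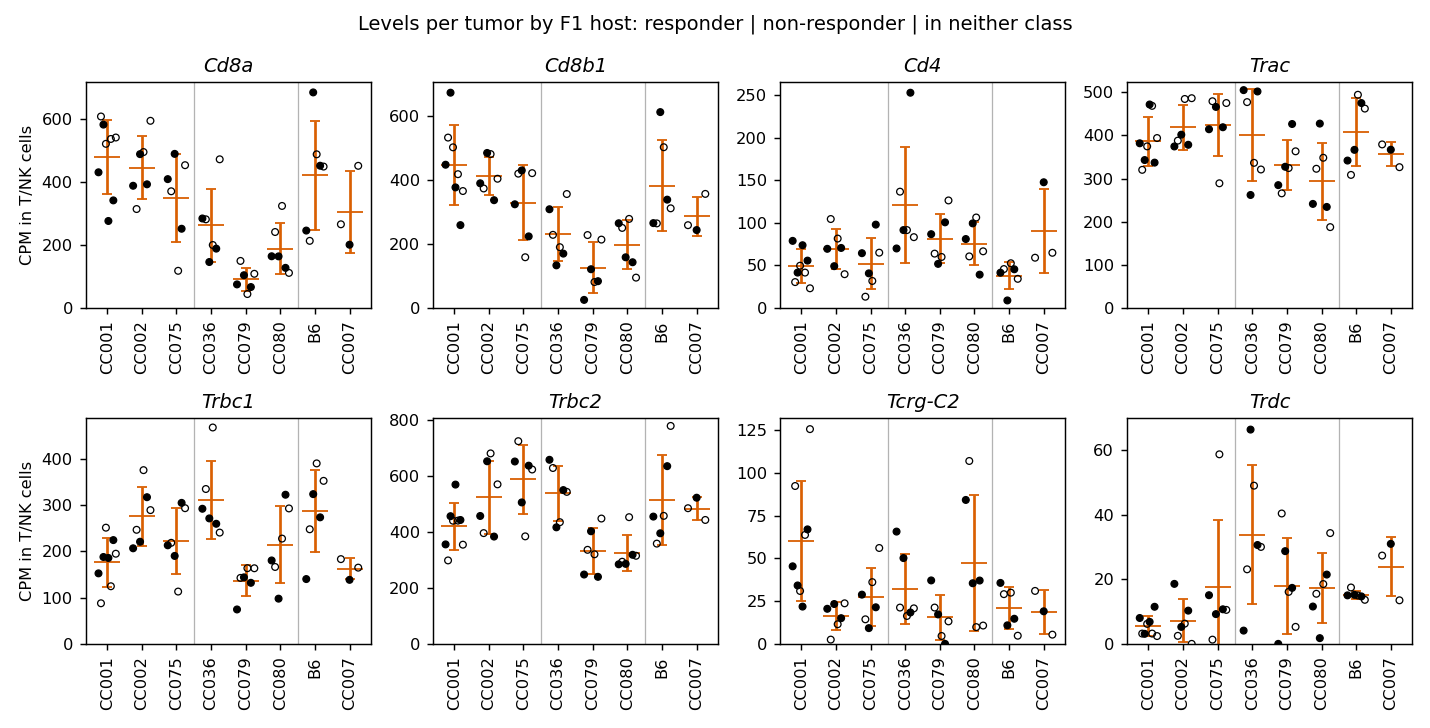
CPM in T/NK cells per tumor (y axis) for 8 of the genes by host strain (x axis), responder hosts left, non-responder hosts in the middle and hosts of neither class right. Open points are isotype and filled points aPD1 tumors, bars are mean and SD; CC079 has the lowest Cd8a (mean 90.7 CPM), and Trbc1 and Trbc2 do not follow the order of Cd8a.

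Among hosts, Cd8a was at 479 ± 119 CPM in CC001 (SD, n = 8), 445 ± 99.7 in CC002, 421 ± 173 in B6, 348 ± 140 in CC075, 305 ± 130 in CC007 (n = 3), 261 ± 116 in CC036, 188 ± 79.9 in CC080 and 90.7 ± 37.2 in CC079 (n = 6 where not given). Neighbours in this order differed by less than either SD, except for CC080 and CC079. Trbc1 had another order: it was at 311 ± 83.2 CPM in CC036, a non-responder, 288 ± 88.8 in B6 and 276 ± 63.9 in CC002 (319, 321 and 287 CPM without cluster 12, which puts B6 first), and lowest in CC001 at 176 ± 52.8, CC007 at 162 ± 22.5 and CC079 at 136 ± 32.9. Trbc2 was highest in CC075 at 587 ± 122 CPM and lowest in CC080 at 325 ± 64.2 and CC079 at 332 ± 82.6. Tcrg-C2 was at 60.2 ± 35.1 CPM in CC001 and 47.4 ± 39.8 in CC080, against 15.6 to 32.1 CPM in the other 6 hosts; the 15.6 CPM of CC079 rest on 23 UMIs and were 7.60 CPM without cluster 12. Trdc was at 33.9 ± 21.5 CPM in CC036 and 5.6 ± 3.2 in CC001. Reads of all hosts were aligned to the same reference, GRCm38. Whether the alleles of the hosts align to it equally well, and what part this has in the host differences, was not tested.

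The Trbc1 share of beta constant UMIs, which the depth of a tumor does not scale, had means from 25.2% in CC007 to 38.7% in CC080 (F = 2.78 over 8 hosts, permutation p = 0.0196, adjusted p = 0.346). By class it was 30.2% ± 6.7 and 36.1% ± 8.4 in isotype tumors, a difference of -5.95 points (exact permutation p = 0.106, adjusted p = 0.438). Neither difference passed the threshold after adjustment. The share was taken over all T/NK cells, among them the NK-like cluster 24, where it was 62.1%. That cluster made up a mean of 8.9% of T/NK cells in responder isotype and 17.6% in non-responder isotype tumors. The part of cell makeup in the class and host differences of this share was not tested.

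CC079 had the lowest mean ratio of the CD8 chains. Its log2 ratio of Cd8a to Cd8b1 was -0.59 ± 0.33 (SD, n = 5), with tumors at -0.97, -0.85, -0.61, -0.32 and -0.21, whereas the means of the other 7 hosts lay between -0.07 and 0.16. The host was picked after its values were seen, so this is a description with no test. Cd8b1 made up 60.9% of the CD8 UMIs in CC079 T/NK cells (56.3 to 65.4, 443 UMIs), against 46.0% to 49.3% in the others. By cluster it was 68.8% in cluster 7 (61.9 to 74.9), where the other hosts had 49.4% to 60.2%, and 69.6% in cluster 8 (55.2 to 80.9), but 48.0% in cluster 3 (38.5 to 57.7), 55.0% in cluster 1 (11 Cd8b1 and 9 Cd8a UMIs) and 48.1% in cluster 13 (13 and 14 UMIs), within the range of the others in each. These intervals treat the UMIs of a host as 1 pool and leave out the spread of tumors. In cluster 7 the interval of CC079 overlapped that of CC001 (55.9 to 64.3). Over the tumors of all hosts with at least 20 CD8 UMIs in cluster 7, the SD was 9.83 points and the highest share 84.8%. CC079 tumors had few cluster 3 cells, 31 in all, and the part of cell makeup in the T/NK ratio of this host was not tested. Macrophage markers in T/NK cells also summed highest in this host, with a median of 1799 CPM against 320 to 735 CPM elsewhere, and without cluster 12 with a median of 151 CPM against 71.8 to 142 CPM. Without cluster 12 the CC079 ratio was -0.56 ± 0.39 (n = 5), and the means of the other hosts lay between -0.08 and 0.13.

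**Figure D5:**
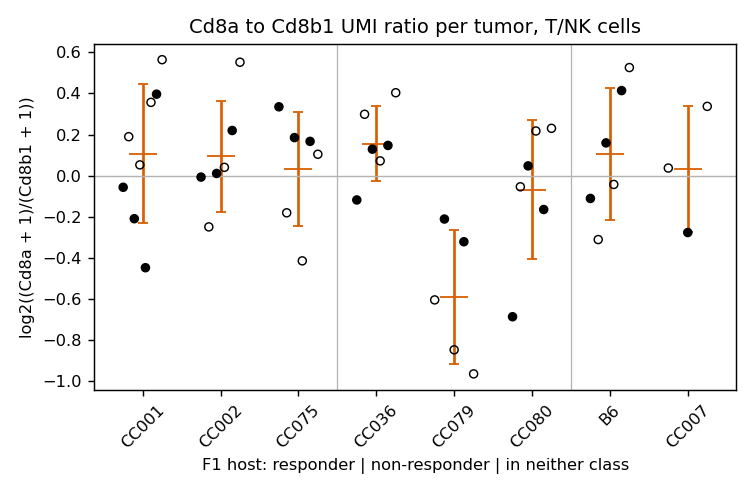
Log2 ratio of Cd8a to Cd8b1 UMIs (1 added to each) in T/NK cells per tumor by host. Open points are isotype and filled points aPD1 tumors, bars are mean and SD; the 5 CC079 tumors lie between -0.97 and -0.21, and the means of the other hosts between -0.07 and 0.16.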

How the data were processed

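The authors deposited UMI counts per gene and cell (all 150064855 entries whole numbers), from Cell Ranger with GRCm38 and GENCODE vM23, and other tables of cell barcodes, gene symbols, library, strain, treatment, hashtag and cluster of each cell; the submitters' notes also name Seurat 5.0.1. Tumors were single hashtagged specimens. Counts were summed per tumor over T/NK clusters or within 1 cluster (at least 10 cells) and fitted with edgeR 4.0.16 (filterByExpr, TMM, quasi-likelihood test, 4 groups of class and treatment) over all genes, after a test on simulated data; DESeq2 1.42.0 was an alternative. Ratios per tumor (at least 20 UMIs) were compared by permutation tests (exact where a group had under 10 tumors, otherwise 100000 resamples; scipy 1.17.1). Classes come from the study, not from the sample labels. Clusters were named from marker lists (at least 3 markers and 50% of a list at 100 CPM). Named genes were all 9 members, list genes past the threshold (at most 4 per direction) and the 3 closest in pattern that were not members. The members and lists were chosen with earlier results of these data known. Pool numbers pair tumors because the labels give a pool as 1 library. T/NK cells per tumor numbered 8 to 810, with 6353 to 2256001 UMIs. Sequences and positions are from GENCODE vM21 on GRCm38. Replicates were tumors; 1 animal identifier stands on 2 CC080 tumors, kept as 2.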

Additional observations from a re-analysis of the deposited data

Results flagged for a closer look

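In 75 groups of 4 to 10 tumors, 8 held a tumor far from the others. Some tumors were flagged on related values, so the flags are not separate events, and how many chance would give was not tested. The CC075 isotype tumor of pool 10 had a Trdc share of 16.9% (the 9 others of its group 0 to 2.17%) and 158 CPM of Cd8b1 in T/NK cells (others 365 to 532). The CC036 aPD1 tumor of pool 9 had a Trdc share of 20.2% (8 others 0 to 8.40%) and 66.4 CPM of Trdc in T/NK cells (others 0 to 30.6). The CC080 isotype tumor of pool 3 had 107 CPM of Tcrg-C2 in T/NK cells (8 others 4.6 to 21.3) and 304 CPM in cluster 3 (6 others 0 to 58.5). It is 1 of the 2 CC080 tumors with the same animal identifier. The CC036 aPD1 tumor of pool 10 had 253 CPM of Cd4 in T/NK cells (8 others 39.0 to 101), and the CC002 aPD1 tumor of pool 12 had a Trbc1 share of 45.2% (9 others 24.6 to 33.6%).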

How the results depend on the processing

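The count of calls within clusters (1 of 25, where 0.404% of genes were called over the same fits) was 5 of 42 with no filter on low counts (Cd4 and Cd8a in cluster 3, Cd8a and Cd8b1 in cluster 8, Trdc in cluster 7; 0.472% of genes), 2 of 19 in pools 1 to 5 (Cd8a in clusters 3 and 8; 0.944%), 0 with at least 20 cells, 0 with counts summed per strain, and, in the settings added later, 0 with at least 5 cells in clusters 1 and 13 and 0 among cells with a CD8 UMI, which were chosen by the compared genes themselves. Leaving out 1 strain at a time gave 0 to 2 (2 of 26 without CC001, with Tcrg-C2 beside Cd4 in cluster 3, 0.687% of genes; 1 of 19 without CC002, now Trbc1 in cluster 7, 0.211%; 1 without CC080, again Cd4; 0 without CC075, CC036 or CC079). With the pool as a replicate block it was 1, again Cd4 in cluster 3. Cd4 in cluster 3 was below 0 in all 20 fits that gave a value and past the threshold in 16. The antibody count (0) was 2 of 153 with no filter, both of Cd8a in cluster 8 (0.0439% of genes). Fits with no filter hold no further tumors, so calls gained there rest on that setting. The block changed no other call than those of Trac and Trdc between hosts; the host count (5, Cd8a and Cd8b1 not counted) was 3 with class as a term. Leaving cluster 12 out of the T/NK sums, added later, changed no call. Leaving out 1 strain at a time gave class differences of the Trdc share in isotype tumors from -6.99 points (without CC075) to -4.28 (without CC001), the first past the threshold. No result reversed. Cluster 10 gave no value without CC036, in pools 1 to 5 or with at least 20 cells. Depth limits Tcrg-C1 (232 UMIs) and Trdc (563 UMIs) most, and doublets and stray transcripts were not modelled.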
